A study of Mus musculus with 12 samples.

Results

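The 43 genes described here encode the complement and coagulation proteins of plasma, together with the receptors and recognition molecules that macrophages contribute to complement. They were chosen by symbol, and all 43 were found among the 16239 named genes of the deposited liver RNA-seq files. Of these, 35 are known as products of hepatocytes, 7 of macrophages (C1qa, C1qb, C1qc, Cfp, Fcna, C3ar1 and C5ar1) and 1, Cfd, of adipocytes. The study fed mice of the 129/B6 strain an LF or an HF diet over 8 months, and the livers came from animals 10 months old. One genotype was floxed for TSP1, that is thrombospondin 1 (gene symbol Thbs1), and is given as WT in the genotype field. The other was a TSP1 knockout specific to macrophages. There were 3 libraries in each of 4 groups, named below by diet and genotype (such as HF knockout), and numbered within a group. The labels give neither the promoter that drove the deletion nor the identity of the animals. Each p-value therefore reflects only how far libraries spread within groups, which may be technical. In the main fit that spread was pooled over all 4 groups and not taken from the compared groups alone. The title of the series places the work in obesity-associated fatty liver disease and asks about thrombospondin 1 made by macrophages.

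Complement is a cascade of plasma proteases that is started by C1q on antibody-coated surfaces, by mannose-binding lectins and ficolins on sugars, or by the alternative pathway, and all routes meet at C3. Cleavage of C3 and C5 marks targets, releases peptides that act on receptors of myeloid cells, and starts assembly of a pore from the terminal components. Coagulation is another protease cascade that ends when thrombin turns fibrinogen into fibrin, which plasmin later dissolves. The liver makes most of the plasma proteins of both cascades, and resident macrophages, the Kupffer cells, are a main source of C1q.

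Each library held 16131506 to 16536016 expected counts, which are the authors' estimated read counts per gene and need not be whole numbers. FPKM (fragments per kilobase of transcript, scaled to the mapped total) is the length-scaled level used to compare genes. All 15 hepatocyte markers were at a mean of at least 1 FPKM in these livers. Thbs1 measured 0.11, 0.06 and 0.07 FPKM in the LF floxed libraries, 0.08, 0.55 and 0.55 in LF knockout, 0.75, 0.75 and 0.31 in HF floxed, and 0.16, 1.42 and 1.63 in HF knockout. The knockout label did not come with a lower level on either diet (log2 difference 2.19 ± 0.84 SE on LF and 0.95 ± 0.73 on HF, edgeR adjusted p = 0.929 and 0.78). A whole-liver level does not check the deletion in macrophages alone.

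Several libraries stood apart. The 3 HF knockout libraries differed more from each other than those of any other group, with rank correlations over genes of 0.8214 to 0.9334 against at least 0.9497 elsewhere. HF knockout 1 had the highest sum of acute phase markers, 27034 FPKM against at most 11999 in the other libraries. HF knockout 2 had the highest sum of monocyte and lipid-associated macrophage markers (979.9 FPKM against at most 224) and of hepatocyte markers (149593). HF knockout 3 had a neutrophil marker sum of 539.5 FPKM against at most 14.02 elsewhere. LF knockout 2 and 3, and HF floxed 1 and 2, were close to identical, with median chi-square values per gene of 1.068 and 2.075 against at least 4.012 in every other pair within a group. These pairs still differed by more than counting noise and were kept as separate libraries. In whole tissue, fewer cells of a type and less RNA per cell cannot be told apart.

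The members took up 3.10% to 5.56% of the counts of named genes. Their share was 3.10% to 3.43% in HF floxed, 3.35% to 3.85% in LF floxed, 3.69% to 3.79% in LF knockout and 4.14% to 5.56% in HF knockout, so the HF floxed and HF knockout groups did not overlap. The highest levels per length belonged to the 3 fibrinogen chains and to carrier and cascade proteins. Mean FPKM over the 12 libraries was 2100 for Fgb, 2020 for Fgg, 1480 for Vtn (vitronectin, which blocks the terminal pore), 1460 for Fga, 1060 for Kng1 (kininogen) and 971 for C3. At the other end stood C5ar1 (0.57) and C3ar1 (0.71), the receptors for the C5a and C3a peptides, then Cfd (5.97) and Cfp (11.8). The steadiest members were the proteases C1ra and F12, with coefficients of variation over the 12 libraries of 10.8% and 11.5%, followed by F9 (12%), C4bp (12.1%) and Cpb2 (13.3%). The most variable were Cfd (149%), C5ar1 (76.3%), C1qc (68.0%), C3ar1 (65.7%), C1qb (65.0%), F11 (64.3%) and C8b (60.8%). The most extreme values gathered in 1 group. The highest library was HF knockout 1 for 14 members, HF knockout 3 for 11 and HF knockout 2 for 10, and HF knockout 2 was also the lowest library for 13.

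**Figure D1:**
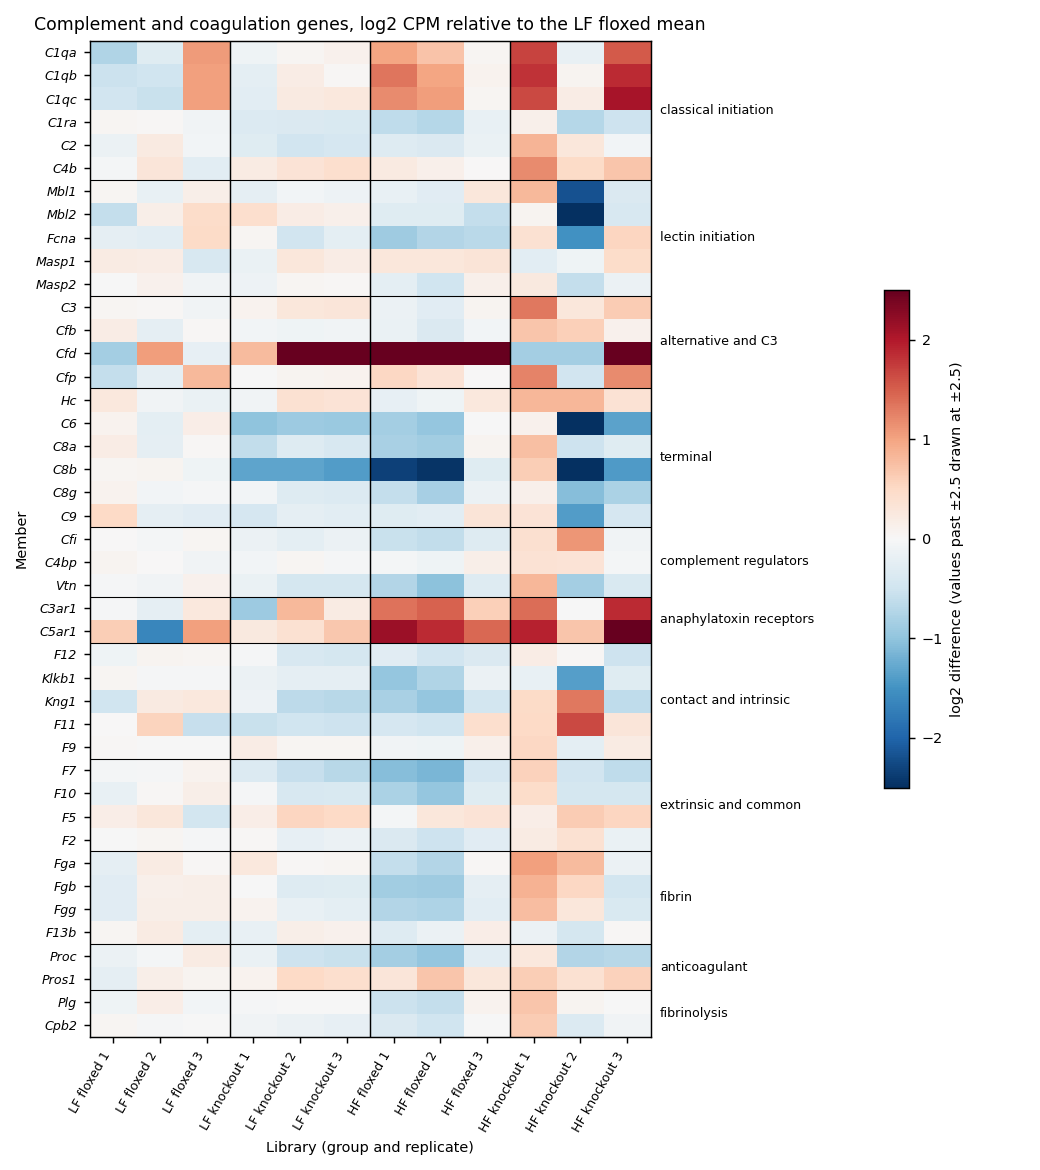
Each cell shows the log2 CPM (counts scaled to library size) of a member in a library minus the mean of the LF floxed libraries, with members in rows by role and the 12 libraries in columns. The C1q rows are red in LF floxed 3, in HF floxed 1 and 2 and in HF knockout 1 and 3, most hepatocyte-made rows are blue in HF floxed 1 and 2, and HF knockout 2 holds both the highest and the lowest values of many rows.

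All 43 members passed the filter on low counts and were tested among 12587 genes with edgeR's quasi-likelihood test. A gene can pass that filter through the group in which it is high, which matters for Cfd and C5ar1. No member passed a false discovery rate of 5% in any of the 7 comparisons made (the 4 pairs of groups, the diet and genotype differences averaged, and their interaction). Over all genes that rate was met by 0% with HF against LF in floxed mice, 0% with HF against LF in knockout mice, 0% with knockout against floxed on HF, 0.0159% with knockout against floxed on LF, 0.00794% for the diet average, 0% for the genotype average and 0.0159% for the interaction. DESeq2 called 2 members in HF against LF in knockout mice, against 1.06% of all genes, 2 in knockout against floxed on HF, against 0.437%, and 1 in the diet average, against 3.2%. It called 0 members with HF against LF in floxed mice (2% of all genes), between genotypes on LF (0.27%), in the genotype average (0.183%) and in the interaction (0.85%). An edgeR fit of the compared groups alone called 1 member with HF against LF in floxed mice (Cfd, against 0.679% of all genes). Between genotypes on LF it called 1 (C8b, against 0.0927%). Each of these fits held a close to identical pair, HF floxed 1 and 2 or LF knockout 2 and 3. The edgeR fit of all groups without HF floxed 3 and HF knockout 1 called 2 with HF against LF in floxed mice (C8b and F7, against 1.23%) and 4 in the diet average (C8b, F7, Proc and C8g, against 5.32%). That fit kept only HF floxed 1 and 2 in the HF floxed group, the pair that was close to identical. Members are therefore described below by their values, by counts at an unadjusted p under 0.05, and by the same counts over all genes. Where the FPKM of groups is said not to overlap, the share of all genes that did the same sets the scale. All HF floxed libraries lay above all LF floxed libraries for 23.6% of genes and below them for 3.3%, and HF knockout lay above LF knockout for 5.59% and below for 5.98%. HF knockout lay above HF floxed for 2.25% and below for 7.08%, and LF knockout above LF floxed for 16% and below for 2.18%. With 43 members, a single one apart in a direction that is common over all genes is a description only.

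The classical pathway opens with C1q, which is built from the C1qa, C1qb and C1qc chains. The RefSeq promoters of C1qb and C1qc (GRCm38.p6, chr4:136886151-136886450 and chr4:136892865-136893164, both on the minus strand) are shown because their genes are neighbours and the ratio of their levels varied least among the pairs of C1q chains. Each runs 5′ to 3′ from 250 bases before to 50 bases after the start of the gene, and capitals mark a match to GAGGAAGT, the core that the myeloid factor PU.1 is known to bind, here on the reverse strand, 195 bases before the start of C1qc.
C1qb: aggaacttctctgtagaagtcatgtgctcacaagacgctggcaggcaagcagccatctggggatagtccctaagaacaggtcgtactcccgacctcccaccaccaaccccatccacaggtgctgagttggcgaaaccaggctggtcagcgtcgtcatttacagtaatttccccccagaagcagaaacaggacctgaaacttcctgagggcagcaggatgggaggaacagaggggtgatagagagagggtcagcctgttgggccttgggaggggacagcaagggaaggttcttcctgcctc
C1qc: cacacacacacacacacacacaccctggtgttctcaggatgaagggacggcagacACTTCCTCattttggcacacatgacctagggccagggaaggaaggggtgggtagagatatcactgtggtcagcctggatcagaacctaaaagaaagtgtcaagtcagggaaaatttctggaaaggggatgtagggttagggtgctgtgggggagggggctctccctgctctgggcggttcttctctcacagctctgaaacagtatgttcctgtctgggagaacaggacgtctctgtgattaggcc
That motif was found, on either strand, in 3.28% of 27025 promoters of the same length, in 1 of 6 macrophage-made members with a promoter and in 0 of 27 hepatocyte-made members. A match is a string of letters and not a measured binding site.

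C1qa measured 21.8, 31.2 and 79.7 FPKM in the LF floxed libraries, 37.5, 45.4 and 47.6 in LF knockout, 93.8, 83.1 and 41.04 in HF floxed, and 112, 38.97 and 136 in HF knockout. C1qb measured 22.04, 23.7 and 67.7 FPKM in the LF floxed libraries, 29.8, 43.4 and 39.03 in LF knockout, 103, 86.1 and 36.7 in HF floxed, and 107, 40.4 and 149 in HF knockout. C1qc measured 20.9, 20.7 and 61.5 FPKM in the LF floxed libraries, 26.4, 40.8 and 41.4 in LF knockout, 84.2, 82.1 and 32.5 in HF floxed, and 86.9, 39.8 and 155 in HF knockout. The 3 chains were low in LF floxed 1 and 2, high in LF floxed 3, HF floxed 1 and 2 and HF knockout 1 and 3, and both LF groups overlapped the HF group of the same genotype. In knockout mice the log2 difference of HF from LF was 1.20 ± 0.51 (SE) for C1qa, 1.45 ± 0.53 for C1qb and 1.41 ± 0.52 for C1qc (edgeR adjusted p = 0.389, 0.346 and 0.353). In floxed mice it was 0.43 ± 0.51, 0.70 ± 0.52 and 0.64 ± 0.51, with adjusted p of 0.754, 0.601 and 0.627 from edgeR. C1ra, a protease that C1q activates, ranged from 86.1 to 126 FPKM and differed with HF by -0.49 ± 0.24 in floxed and 0.04 ± 0.24 in knockout mice (edgeR adjusted p = 0.435 and 0.965). The sum of the 3 C1q chains ranged from 64.7 FPKM in LF floxed 1 to 441 in HF knockout 3, a 6.82-fold range. Over the 12 libraries the ratio of C1qb to C1qc stayed between 0.943 and 1.24, that of C1qa to C1qb between 0.908 and 1.32, and that of C1qa to C1qc between 0.877 and 1.51.

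Macrophages also make properdin (Cfp), which stabilises the alternative convertase, and ficolin A (Fcna), which recognises sugars for the lectin pathway. Cfp measured 5.24, 7.18 and 14.7 FPKM in the LF floxed libraries, 8.69, 9.98 and 10.1 in LF knockout, 14.7, 13.8 and 8.74 in HF floxed, and 18.1, 6.85 and 23.2 in HF knockout. Its groups overlapped in every comparison, and its log2 difference of HF from LF was 0.18 ± 0.43 in floxed and 0.79 ± 0.43 in knockout mice (edgeR adjusted p = 0.893 and 0.478). Fcna measured 15.9, 16.3 and 27.2 FPKM in the LF floxed libraries, 21.2, 15.9 and 18.9 in LF knockout, 12.8, 15.4 and 12.7 in HF floxed, and 23.3, 7.86 and 34.5 in HF knockout. It was the macrophage-made member whose HF floxed libraries all lay below those of LF floxed, by 0.80 ± 0.41 on the log2 scale (edgeR adjusted p = 0.449). On HF, Fcna was highest in HF knockout 3 and lowest in HF knockout 2.

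The receptors for the anaphylatoxins were the members nearest to a call in the diet average. C3ar1 measured 0.33, 0.30 and 0.43 FPKM in the LF floxed libraries, 0.19, 0.74 and 0.48 in LF knockout, 1.16, 1.36 and 0.57 in HF floxed, and 0.90, 0.41 and 1.67 in HF knockout. C5ar1 measured 0.28, 0.02 and 0.40 FPKM in the LF floxed libraries, 0.23, 0.28 and 0.35 in LF knockout, 1.13, 0.99 and 0.57 in HF floxed, and 0.72, 0.36 and 1.49 in HF knockout. These low levels rest on few counts, 13 to 116 per library for C3ar1 and 1 to 59 for C5ar1. Both receptors were higher in every HF floxed library than in every LF floxed library, as were 23.6% of all genes, while among knockout libraries C5ar1 was just apart (0.36 against 0.35 FPKM) and C3ar1 overlapped. Averaged over genotypes, the log2 difference of HF from LF was 1.61 ± 0.50 for C5ar1 and 1.18 ± 0.38 for C3ar1 (edgeR adjusted p = 0.205 and 0.209). DESeq2 gave C5ar1 an adjusted p of 0.042. Both receptors were highest in HF knockout 3, the library with the high neutrophil markers.

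As a group, the macrophage-made members were higher on HF in 6 of 7 cases in floxed mice (median log2 difference 0.64) and in 7 of 7 in knockout mice (median 1.20), beside medians over all tested genes of 0 and 0.03. In the diet average, 5 of the 7 (C5ar1, C3ar1, C1qb, C1qc and C1qa) were higher at an unadjusted p under 0.05, against 10.4% of all genes, and 0 were lower, against 4.83%. Between genotypes none of the 7 reached that p, with a median log2 difference of 0.57 on HF and -0.10 on LF, and the LF median turned to 0.53 without LF floxed 3. Kupffer cell markers, of which all 11 in the files were at a mean of at least 1 FPKM, summed to 71.7 to 176 FPKM in LF floxed, 94.2 to 134 in LF knockout, 96.8 to 182 in HF floxed and 88.0 to 371 in HF knockout. The sum of the macrophage-made members divided by that of the Kupffer markers was 1.16 to 1.43 in the LF libraries and 1.35 to 1.83 in the HF libraries. These markers did not move as a set with HF in floxed mice. Marco (-2.81), Vsig4 (-1.32), Cd163 (-0.42), Timd4 (-0.36), Clec4f (-0.15) and Folr2 (-0.04) were lower there. Adgre1 (1.29), Cd68 (0.90), Cd5l (0.72), Csf1r (0.61) and Slc40a1 (0.01) were higher. In knockout mice all but Slc40a1 (-0.50) were higher with HF. Each macrophage-made member was highest in HF knockout 3, the library with the highest neutrophil and Kupffer marker sums. The part of Kupffer cell number or of neutrophils in these values was not tested.

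Cfd, also called adipsin, is the protease that activates factor B and is a known product of fat cells. Cfd measured 0, 0.35 and 0.08 FPKM in the LF floxed libraries, 0.28, 13.8 and 12.3 in LF knockout, 4.01, 4.18 and 7.07 in HF floxed, and 0, 0 and 29.5 in HF knockout. The counts behind these values were 0, 5 and 1 in LF floxed, 4, 198 and 178 in LF knockout, 58, 60 and 103 in HF floxed, and 0, 0 and 426 in HF knockout. The gene thus went from none to the highest value within the HF knockout group, and only the LF floxed and HF floxed groups, among pairs that share a genotype or a diet, did not overlap. In knockout against floxed mice on LF it had the smallest unadjusted p of all members, 0.0252, with an edgeR adjusted p of 0.929. The genotype average, a log2 difference of 3.29, turned to -1.70 when HF knockout 3 was left out. Of 7 fat cell markers 6 were in the files, and 3 of them (Car3, Cidec and Lipe) had a mean of at least 1 FPKM. The 6 summed to 858 to 1327 FPKM in LF floxed, 1321 to 3219 in LF knockout, 1570 to 3570 in HF floxed and 104 to 2714 in HF knockout. Most of each sum was Car3, which hepatocytes are also known to express, at 74.7 FPKM in HF knockout 2 to 3557 in HF floxed 3. The sum was highest in HF floxed 3, LF knockout 3, LF knockout 2 and HF knockout 3, all with Cfd at 7.07 FPKM or more, and lowest in HF knockout 2, where Cfd was at 0. Adipoq, Plin1 and Retn, which define fat cells more narrowly, were listed at 0 in most libraries and at no more than 0.21, 0.07 and 0.22 FPKM in any. The part of fat cells in the Cfd values was not tested.

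**Figure D2:**
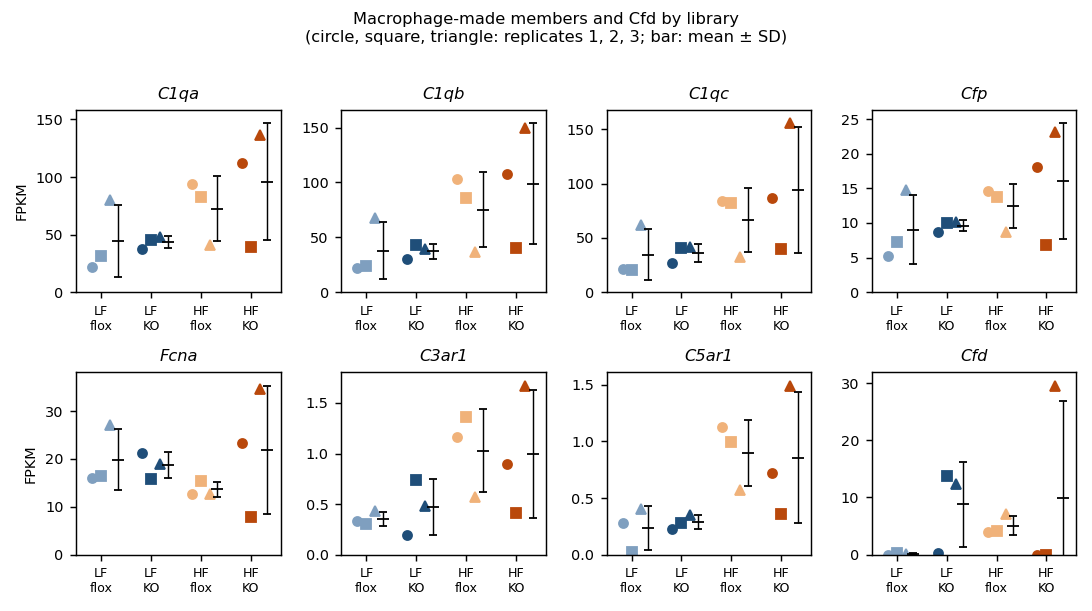
FPKM of the 7 macrophage-made members and Cfd in every library, on linear axes that start at 0. Symbols mark replicates 1, 2 and 3 of each group, and bars give the mean ± SD of the 3 libraries. HF knockout 2 lies low and HF knockout 3 high in each macrophage-made panel, and Cfd is at 0 in HF knockout 1 and 2.

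Among the hepatocyte-made members, fibrinogen was the most abundant product. Its 3 chains are encoded side by side in the order Fgg, Fga and Fgb in the RefSeq annotation of GRCm38.p6, and the promoters are shown because the genes are neighbours and the chains form 1 protein (Fga chr3:83025903-83026202 plus strand, Fgb chr3:83049814-83050113 minus strand, Fgg chr3:83007474-83007773 plus strand). Capitals mark 3 motifs. GTTAAT, part of the site of the hepatocyte factor HNF1, lies on the reverse strand 43 bases before the start of Fga and 29 bases before that of Fgb. TTCNNNGAA, the letters that STAT factors are known to bind, lies 234 bases before the start of Fga and 162 before that of Fgb. TTNNGNAAT, a form of the C/EBP site, lies on the reverse strand 8 bases before the start of Fgb.
Fga: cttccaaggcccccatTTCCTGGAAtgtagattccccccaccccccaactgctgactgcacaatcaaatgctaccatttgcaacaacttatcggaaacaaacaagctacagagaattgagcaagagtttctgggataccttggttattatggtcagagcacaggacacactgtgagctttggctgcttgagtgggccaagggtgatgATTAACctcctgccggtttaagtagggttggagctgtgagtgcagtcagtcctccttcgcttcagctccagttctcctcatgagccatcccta
Fgb: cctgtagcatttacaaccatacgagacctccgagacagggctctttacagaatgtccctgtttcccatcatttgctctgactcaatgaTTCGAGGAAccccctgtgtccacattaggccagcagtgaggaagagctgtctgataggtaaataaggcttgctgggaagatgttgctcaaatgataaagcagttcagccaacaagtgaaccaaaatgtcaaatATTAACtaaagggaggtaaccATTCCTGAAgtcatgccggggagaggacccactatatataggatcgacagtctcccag
Fgg: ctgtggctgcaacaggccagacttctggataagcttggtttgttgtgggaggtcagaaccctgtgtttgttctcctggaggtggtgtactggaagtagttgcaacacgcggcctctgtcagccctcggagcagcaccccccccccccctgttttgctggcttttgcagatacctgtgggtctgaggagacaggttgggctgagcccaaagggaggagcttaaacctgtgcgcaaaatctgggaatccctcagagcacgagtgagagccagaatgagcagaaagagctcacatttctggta
Fgg held none of the motifs searched in this window. A promoter was found in the table for 34 of the 43 members, and for 27 of the hepatocyte-made ones. C1qa, C2, C4b, Cfb, Cfi, Masp1, Plg, Kng1 and Proc were not matched. On either strand GTTAAT was in 10 of the 27 and in 7.2% of all promoters, TTNNGNAAT in 9 of the 27 and in 11.6%, and TTCNNNGAA in 8 of the 27 and in 8.47%. The interferon-response letters GAAANNGAA were in 1 of the 27, against 8.57% of all promoters. Matches to CAAAGTCCA (HNF4) and TTGCGCAAT (C/EBP) were found in 0 of the 27, against 0.477% and 0.0444% of all promoters.

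Fga measured 1083, 1437 and 1154 FPKM in the LF floxed libraries, 1518, 1451 and 1472 in LF knockout, 995, 979 and 1303 in HF floxed, and 2316, 2499 and 1368 in HF knockout. Fgb measured 1614, 2238 and 2253 FPKM in the LF floxed libraries, 2128, 1864 and 1909 in LF knockout, 1359.9, 1434 and 1802 in HF floxed, and 3397, 3366 and 1815 in HF knockout. Fgg measured 1544, 2185 and 2153 FPKM in the LF floxed libraries, 2193, 1967 and 1901 in LF knockout, 1439.5, 1507 and 1704 in HF floxed, and 3039.6, 2768 and 1848 in HF knockout. All 3 chains were lowest in HF floxed 1 and 2 and highest in HF knockout 1 and 2, while HF knockout 3 lay only just above the highest HF floxed library. On the log2 CPM scale of the fit, HF knockout 3 was below HF floxed 3 for each chain. On HF the knockout libraries were higher by 1.03 ± 0.35 (log2, SE) for Fga, 1.04 ± 0.36 for Fgb and 0.87 ± 0.33 for Fgg (edgeR adjusted p = 0.598, 0.598 and 0.61). HF differed from LF by -0.65 ± 0.36 for Fgb in floxed mice and by 0.61 ± 0.36 in knockout mice (edgeR adjusted p = 0.482 and 0.514). The ratio of Fgb to Fgg stayed between 0.945 and 1.22 over all libraries, that of Fga to Fgb between 0.513 and 0.778, and that of Fga to Fgg between 0.536 and 0.903. Fibrinogen made up 33.4% to 44.5% of the summed FPKM of the hepatocyte-made members. F13b, the carrier subunit of the fibrin-crosslinking factor XIII, showed 38.8 to 60.3 FPKM over the 12 libraries and differed between genotypes on HF by -0.09 ± 0.20 (edgeR adjusted p = 0.935).

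C3, on which all complement routes converge, measured 739, 754 and 697 FPKM in the LF floxed libraries, 832, 1033 and 1049 in LF knockout, 820.1, 796 and 808 in HF floxed, and 1683, 1037 and 1399 in HF knockout. Every HF knockout library was above every HF floxed library, by 0.92 ± 0.31 on the log2 scale (edgeR adjusted p = 0.598, DESeq2 adjusted p = 0.0385). C3 FPKM was also higher in every HF floxed than in every LF floxed library, as for 23.6% of all genes, yet the TMM-scaled fit gave a log2 difference of -0.11 ± 0.30. The median gene in this comparison was 0.20 higher on the log2(FPKM + 1) scale, 0.22 on total counts and 0 in the fit. TMM scaling sets the typical gene near 0 by design, so these medians cannot show which scale is right. Differences between groups below are those of the fit, and a lack of overlap on FPKM is given as a description of the single member, with the shares over all genes as above.

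C2 and factor B (Cfb) are neighbouring genes for the related proteases of the classical and alternative convertases. C2 measured 20.5, 27.9 and 22.5 FPKM in the LF floxed libraries, 20.3, 19.4 and 20.4 in LF knockout, 23.2, 24.2 and 21.9 in HF floxed, and 39.2, 33.6 and 27.8 in HF knockout. Cfb measured 345, 271 and 320.2 FPKM in the LF floxed libraries, 317, 336 and 340.4 in LF knockout, 343, 322 and 314 in HF floxed, and 464, 549.6 and 413 in HF knockout. For both genes the HF knockout libraries lay above all libraries of HF floxed and of LF knockout. In knockout mice C2 was higher on HF by 0.81 ± 0.22 and Cfb by 0.57 ± 0.23 (edgeR adjusted p = 0.344 and 0.37), and DESeq2 gave C2 an adjusted p of 0.0499. For C2 the diet difference itself differed between genotypes by 1.11 ± 0.31, with an edgeR adjusted p of 0.396.

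Factor I (Cfi) is the plasma protease that, with cofactors such as the C4b-binding protein (C4bp), inactivates C3b and C4b. Cfi measured 242, 242 and 261 FPKM in the LF floxed libraries, 239, 242 and 259.6 in LF knockout, 210.1, 217 and 209 in HF floxed, and 304, 621 and 292 in HF knockout. Every HF floxed library lay below, and every HF knockout library above, all 6 LF libraries. The knockout difference on HF was 1.04 ± 0.28 (edgeR adjusted p = 0.598, DESeq2 adjusted p = 0.0184), and it was 0.67 without HF knockout 2, whose 621 FPKM was the highest value. C4bp ranged from 193 to 299.8 FPKM, and its difference was 0.23 on HF by the same fit. Vtn spanned 1027 FPKM in HF knockout 2 to 2626 in HF knockout 1, and C4b, the mouse C4 of the classical pathway, 151 in LF floxed 3 to 381 in HF knockout 1. C4b shares reads with C4a, so its level is uncertain by the share that the authors' counting could move between the copies.

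The lectin pathway and the terminal components showed another arrangement, in which HF knockout 2 was by far the lowest library for several genes. Mbl2, a mannose-binding lectin, measured 198, 348 and 429 FPKM in the LF floxed libraries, 443, 409.6 and 393 in LF knockout, 309.7, 335 and 215 in HF floxed, and 300.5, 42.8 and 291 in HF knockout. C6, a terminal component, measured 79.4, 65.5 and 86.5 FPKM in the LF floxed libraries, 40.7, 47.3 and 46.9 in LF knockout, 52.8, 52.2 and 80.4 in HF floxed, and 76.4, 5.97 and 37.4 in HF knockout. Both had their minimum in HF knockout 2, at 42.8 and 5.97 FPKM, and the other HF knockout libraries lay within the range of the remaining groups, except that C6 in HF knockout 3 was below it at 37.4 FPKM. Mbl1 was also lowest there, at 33.1 FPKM against 114 to 208 elsewhere, and C9, the pore-forming component, at 72.4 against 130 to 224. The same library was at the top for Cfi, Kng1, F11, Hc and Cfb. Mbl2 differed between diets by -0.89 ± 0.56 in knockout mice (edgeR adjusted p = 0.549). Masp1 and Masp2, the proteases that the lectins activate, differed between groups by at most 0.27 on the log2 scale in the 4 comparisons of pairs.

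C8, the component that anchors the pore, is a complex of the C8a, C8b and C8g chains, and the genes for the first pair are neighbours. C8b measured 99.8, 106 and 93.8 FPKM in the LF floxed libraries, 42.9, 46.1 and 44.1 in LF knockout, 24.6, 24.3 and 85.00 in HF floxed, and 142, 20.03 and 46.4 in HF knockout. The 3 LF floxed libraries were at 93.8 to 106 FPKM and did not overlap the 3 LF knockout libraries, at 42.9 to 46.1. HF floxed 1 and 2 were lower still, at 24.6 and 24.3, whereas HF floxed 3 and HF knockout 1 were at 85.0 and 142. The log2 difference of knockout from floxed on LF was -1.35 ± 0.72 and that of HF from LF in floxed mice -1.33 ± 0.72 (edgeR adjusted p = 0.929 and 0.472). Fitted on the LF libraries alone, among them the close to identical LF knockout 2 and 3, C8b had an edgeR adjusted p of 0.0469. Left without HF floxed 3 and HF knockout 1, the only 2 libraries whose files carry an extra letter in their names, it had 0.00974 in HF against LF in floxed mice. In that fit the HF floxed group was only HF floxed 1 and 2, the close to identical pair, at 24.6 and 24.3 FPKM. C8g, at 195 to 363 FPKM over the 12 libraries, differed with HF by -0.50 ± 0.30 in floxed and -0.24 ± 0.30 in knockout mice (edgeR adjusted p = 0.516 and 0.775). C8a varied between 95.8 and 216 FPKM, and the ratio of C8a to C8b went from 1.13 in LF floxed 2 to 5.63 in HF knockout 2. Hc, the mouse gene for C5, was higher in each HF knockout library (148 to 193 FPKM) than in each HF floxed library (98.9 to 117), by 0.70 ± 0.25 (edgeR adjusted p = 0.6).

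In the contact and intrinsic pathway, kininogen and factor XI carried the widest differences. Kng1 measured 687, 1197 and 1221 FPKM in the LF floxed libraries, 974, 738 and 723 in LF knockout, 708, 681 and 768 in HF floxed, and 1301, 2915 and 810.3 in HF knockout. F11 measured 12.6, 19.2 and 8.65 FPKM in the LF floxed libraries, 9.24, 10.5 and 10.4 in LF knockout, 11.8, 12.03 and 18.1 in HF floxed, and 16.7, 47.4 and 19.6 in HF knockout. HF knockout 2 exceeded the next highest library by more than the spread among all others for both genes. On HF the knockout difference was 1.33 ± 0.44 for Kng1 and 1.05 ± 0.39 for F11 (edgeR adjusted p = 0.598 and 0.607), and without HF knockout 2 it was 0.77 and 0.50. Kng1 shares reads with Kng2, which makes its level uncertain in the same way as that of C4b. F11 lies next to Klkb1, the gene for plasma prekallikrein, and their ratio was 0.191 to 0.449 in 11 libraries and 2.30 in HF knockout 2. Klkb1 itself was lowest in that library, at 20.6 FPKM against 28.9 to 46.2 elsewhere. F12, which starts the contact pathway, and F9 stayed within 199.5 to 290.0 and 52.6 to 76.0 FPKM.

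Factor VII (F7) starts the extrinsic pathway with tissue factor, and factor X (F10), encoded next to it, is the protease on which both branches meet. F7 measured 32.1, 34.1 and 37.03 FPKM in the LF floxed libraries, 28.98, 26.9 and 24.6 in LF knockout, 20.3, 20.6 and 27.04 in HF floxed, and 47.1, 29.1 and 27.6 in HF knockout. F10 measured 125, 151 and 164 FPKM in the LF floxed libraries, 151, 128 and 129 in LF knockout, 104, 99.4 and 124 in HF floxed, and 185, 126 and 133 in HF knockout. For F7 the 3 LF floxed libraries were above those of LF knockout and of HF floxed without overlap, and the HF knockout libraries were above those of HF floxed on FPKM. On the log2 CPM scale of the fit F7 overlapped between genotypes on HF, with HF knockout 2 and 3 (-0.469 and -0.628) below HF floxed 3 (-0.42). HF against LF in floxed mice was -0.84 ± 0.30 for F7 and -0.66 ± 0.28 for F10 (edgeR adjusted p = 0.326 and 0.389). The ratio of F7 to F10 kept between 0.190 and 0.257. Prothrombin (F2) measured 742, 806 and 764 FPKM in the LF floxed libraries, 837, 777 and 813 in LF knockout, 741, 720.1 and 666 in HF floxed, and 825, 1175 and 856 in HF knockout. It was highest in HF knockout 2, did not overlap between genotypes on HF, and differed there by 0.54 ± 0.23 (edgeR adjusted p = 0.624). Factor V (F5), the cofactor of factor X, ranged from 34.8 to 85.5 FPKM and was higher in knockout mice on LF by 0.38 ± 0.25 (edgeR adjusted p = 0.929).

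**Figure D3:**
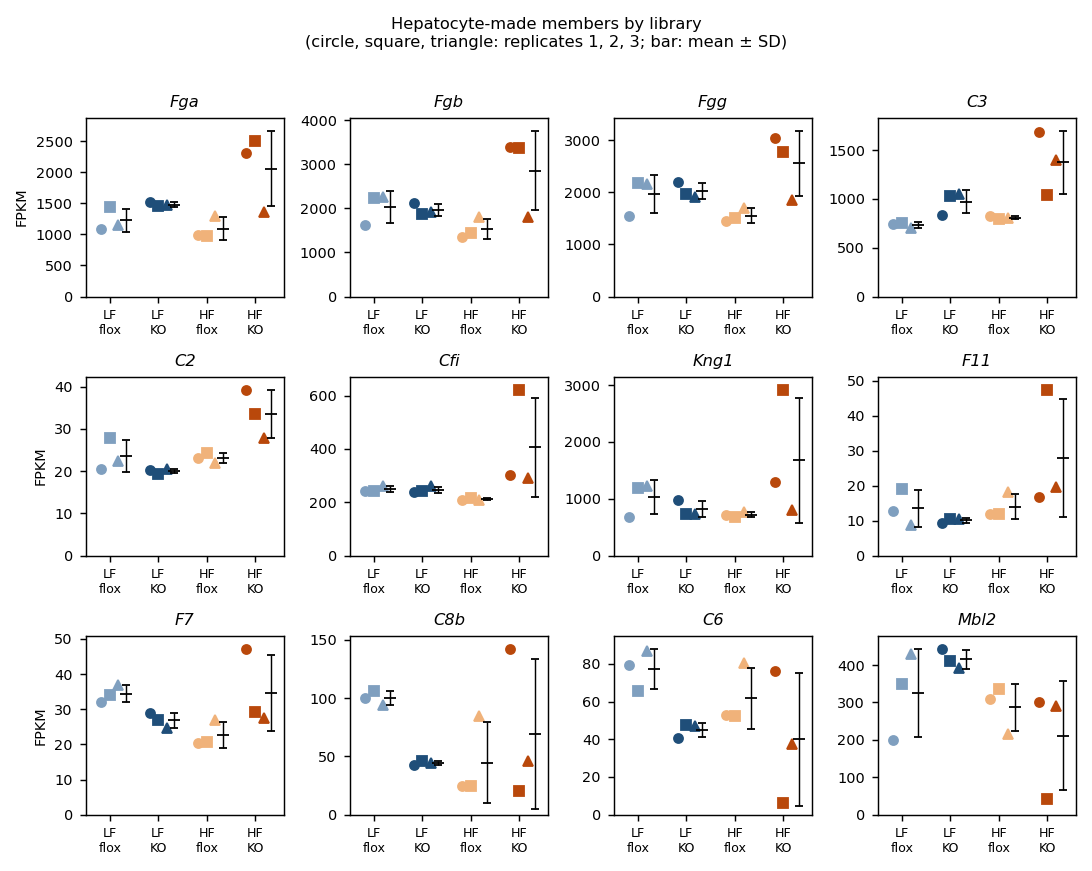
FPKM of 12 hepatocyte-made members in every library, on linear axes that start at 0, with symbols for replicates 1, 2 and 3 and bars for the mean ± SD. Fga, Fgb and Fgg are highest in HF knockout 1 and 2, Cfi, Kng1 and F11 in HF knockout 2, and C6 and Mbl2 are lowest in HF knockout 2.

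Among the anticoagulants, protein C (Proc) and its cofactor protein S (Pros1) went different ways on HF in floxed mice. Pros1 measured 7.77, 10.5 and 9.87 FPKM in the LF floxed libraries, 10.6, 15.2 and 14.6 in LF knockout, 14.2, 20.1 and 11.98 in HF floxed, and 13.2, 14.2 and 17.2 in HF knockout. All HF floxed libraries were above all LF floxed libraries, as for 23.6% of all genes, and the fit gave a difference of 0.44 ± 0.17, whereas Proc differed by -0.66 ± 0.31 (edgeR adjusted p = 0.364 and 0.414). Of the fibrinolytic genes, plasminogen (Plg) had 598 to 780.0 FPKM in HF floxed and 863 to 1043 in HF knockout, a log2 difference of 0.60 ± 0.28 (edgeR adjusted p = 0.672). Cpb2, the carboxypeptidase that slows fibrinolysis, stayed between 188 and 293 FPKM.

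In floxed mice 30 of the 35 hepatocyte-made members were lower on HF than on LF in the fit and 5 higher. The median log2 difference was -0.37 beside 0 over all genes. On the log2(FPKM + 1) scale that median was -0.11, beside 0.20 over all genes. Mean FPKM was higher on HF for C3, C9, Hc, Cfb, Mbl1, F9, F11 and F13b, which were lower in the fit. Hepatocyte markers had a median of -0.62 in the fit, with 15 of 15 lower. Their summed FPKM was 82622 to 109366 in LF floxed and 69046 to 75511 in HF floxed. Of all 43 members, 4 were higher at an unadjusted p under 0.05 (6.85% of all genes) and 2 lower (5.32%), shares near those of all genes. The lower count was 13 when HF floxed 3 and HF knockout 1 were left out, 13 when only the 6 floxed libraries were fitted and 0 when each near-identical pair was summed. It was also 0 without HF floxed 1 or 2, 8 without HF floxed 3, and 7, 9 and 5 without HF knockout 1, 2 and 3. Leaving out HF floxed 3 left only the close to identical HF floxed 1 and 2 in that group. On FPKM, 9 of the 35 had all HF floxed libraries below all LF floxed libraries, against 3.3% of all genes, and 5 had them above, against 23.6%.

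In knockout mice the hepatocyte-made members had a median difference of HF from LF of 0.26, with 27 of 35 higher. Of the 43 members, 9 were higher at an unadjusted p under 0.05 (8.81% of all genes) and 0 lower (3.38%). The 9 were F11, C2, C1qb, C1qc, Cfi, Cfb, Kng1, C1qa and C5ar1, with log2 differences of 0.57 to 1.59. Their number was 4 without LF knockout 1 and 5 without LF knockout 2, LF knockout 3 or HF knockout 1. Without HF knockout 1 the hepatocyte-made median was 0.04, and without HF knockout 3 it was 0.39. FPKM was higher without overlap for 7 of the 35 (5.59% of all genes) and lower for 1 (5.98%). Acute phase markers summed to 9579 to 27034 FPKM in HF knockout and 7221 to 7912 in LF knockout, and 10 of 15 were higher at that p. Hamp among them was lower, at -2.84 ± 0.86 (edgeR adjusted p = 0.344). The part of the acute phase markers in the members' values was not tested.

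The comparison with the most members at an unadjusted p under 0.05 was knockout against floxed on HF. Here 13 of the 43, all made by hepatocytes, were higher at an unadjusted p under 0.05, against 4.59% of all genes, and 0 were lower, against 3.06%. They were Cfi, C2, Kng1, C3, Fga, Fgb, Cfb, Hc, F11, C4b, Fgg, F7 and F2, with log2 differences of 0.54 to 1.33 and edgeR adjusted p of 0.598 to 0.624. FPKM was higher without overlap for 14 of the 35 hepatocyte-made members, against 2.25% of all genes, and lower for 0, against 7.08%. Of these 14, Fga, Fgb, Fgg, Plg, Kng1, F7 and F10 overlapped on the log2 CPM scale of the fit, with HF knockout 3 below HF floxed 3 for each. By lack of overlap on FPKM, HF against LF in floxed mice had more of the 43 members apart, with 8 higher and 10 lower. The median of the 35 was 0.54 beside 0.03 over all genes, with 29 higher, whereas hepatocyte markers had a median of 0.14. The count of 13 was 4 without HF floxed 2, 6 without HF floxed 1, 20 without HF knockout 2, 4 in a fit of the 6 HF libraries alone and 2 with near-identical pairs summed. The median was 0.17 without HF knockout 1 and 0.40 to 0.68 without any other HF library. Of the acute phase markers, 9 of 15 were higher at that p, while Hamp was lower, at -2.69 ± 0.86 (edgeR adjusted p = 0.598). The markers summed to 7724 to 9440.1 FPKM in HF floxed. HF knockout 2 had an acute phase sum of 9579 FPKM against 27034 in HF knockout 1, with fibrinogen sums of 8634 and 8753. The part of the acute phase markers was not tested. In HF knockout 1 the hepatocyte-made members came to 24.5% of the hepatocyte marker sum, against 13% to 17.2% in the other 11 libraries. HF knockout 2, at 13%, had a hepatocyte-made sum of 19410 FPKM against 20928 in HF knockout 1. Its hepatocyte marker sum was 149593 FPKM against 85308, so the marker sum sets much of this contrast.

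On LF the genotypes were closer. The hepatocyte-made median was -0.15, with 10 of 35 higher, and it stayed at or under 0.03 in every setting tried. Of the 43, 1 was higher at an unadjusted p under 0.05 (Cfd, 2.58% of all genes) and 0 lower (2.55%). Those p-values use the spread of all 4 groups, and a fit of the LF libraries alone gave 0 higher and 7 lower. In the latter fit LF knockout 2 and 3 were a close to identical pair. On FPKM, 5 of the 35 were higher without overlap, against 16% of all genes, and 6 were lower, against 2.18%. The median over all genes was 0.12 on the log2(FPKM + 1) scale in this comparison.

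In the fit, 23 of the 35 hepatocyte-made members were lower on HF in floxed mice and higher on HF in knockout mice. In both genotypes 7 were lower and 4 (C4b, C4bp, F5 and Pros1) higher, and 1, Masp1, was higher in floxed and lower in knockout mice. Some differences were small, such as -0.02 for Hc and F9, -0.05 for Mbl1 and -0.11 for C3 in floxed mice. Of the 23, C3, Hc, Cfb, F9, Mbl1 and F11 had a higher mean FPKM on HF in floxed mice, so these signs depend on the scale. The 2 diet comparisons share no library, and the test of their difference is the interaction. The interaction was positive for 30 of the 35, with a median of 0.58 beside 0.05 over all genes. At an unadjusted p under 0.05 it was positive for 7 of the 43 members (C2, Cfi, F7, F11, Kng1, Fgb and Cfb, 0.77 to 1.84), against 5.21% of all genes, and negative for 0, against 4.34%. The 7 became 14 without HF floxed 3 or HF knockout 3, 18 without HF knockout 2 and 2 with near-identical pairs summed. The smallest edgeR adjusted p was 0.396. On FPKM, 1 member (Cfi) was apart in opposite directions with diet in the 2 genotypes, against 1.3% of all genes, of which 0.103% were lower in floxed and higher in knockout mice like Cfi. Between genotypes 2 members (C2 and F7) were apart in opposite directions on the 2 diets, against 1.5% of all genes, with 0.175% lower on LF and higher on HF like both. For C2 the groups on LF were barely apart on FPKM, at 20.42 against 20.5 at the nearest. For F7 the groups on HF were barely apart on FPKM and overlapped on the log2 CPM scale of the fit. Averaged over diets, knockout libraries were higher at that p for 6 members (C4b, C3, Hc, Cfd, Fga and Cfi), against 1.85% of all genes, and lower for 0, against 1.37%. The 6 became 2 without LF knockout 2 or 3 or HF floxed 1 or 2, and 3 without any LF floxed library. Averaged over genotypes, the 7 members that were higher on HF were C5ar1, C3ar1, C1qb, C1qc, Pros1, F11 and C1qa. Their number was 4 without LF floxed 1 or LF knockout 1. None was lower in that average, but 10 were without HF knockout 1.

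**Figure D4:**
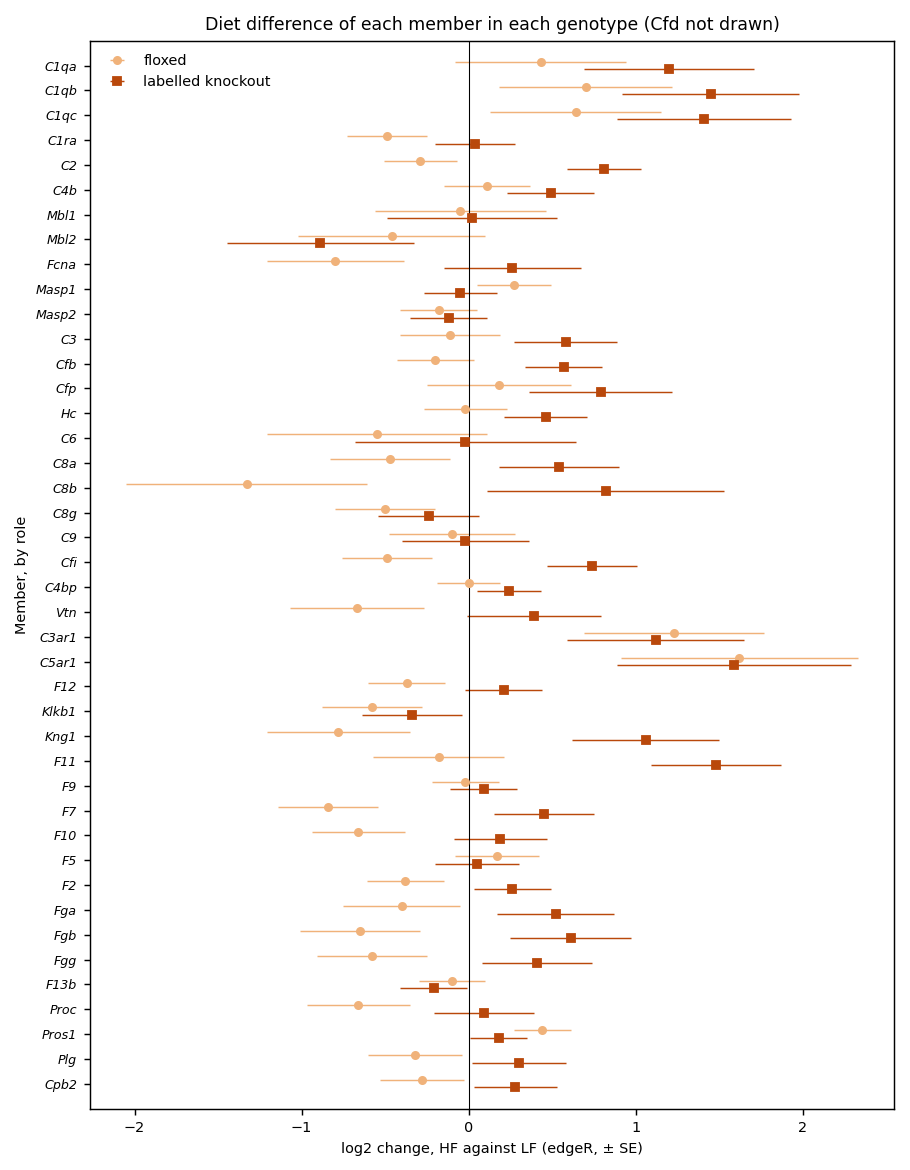
The log2 difference of HF from LF (edgeR, horizontal axis, ± SE) of each member but Cfd, in floxed mice (circles) and in mice labelled knockout (squares), ordered by role. Most hepatocyte-made members lie left of 0 in floxed and right of 0 in knockout mice, and the C1q chains and both receptors lie right of 0 in both.

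There were 8 pairs of members with no coding gene between them, and they differed in how closely their levels went together. The highest ratio over the 12 libraries was 1.31 times the lowest for C1qb and C1qc, 1.35 times for F7 and F10 and 1.52 times for Fga and Fgb. It was 1.68 times for Fga and Fgg, 1.72 times for C1qa and C1qc and 1.78 times for C2 and Cfb. C8a and C8b spread over 4.98-fold and F11 and Klkb1 over 12.1-fold. Fgb and Fgg, which have Fga between them, spread over 1.29-fold. C8a, C8g, F2, Masp1 and Masp2 overlap another coding gene in the annotation, and no source used here says whether the counting used strand, so reads of the partner may enter their levels.

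**Figure D5:**
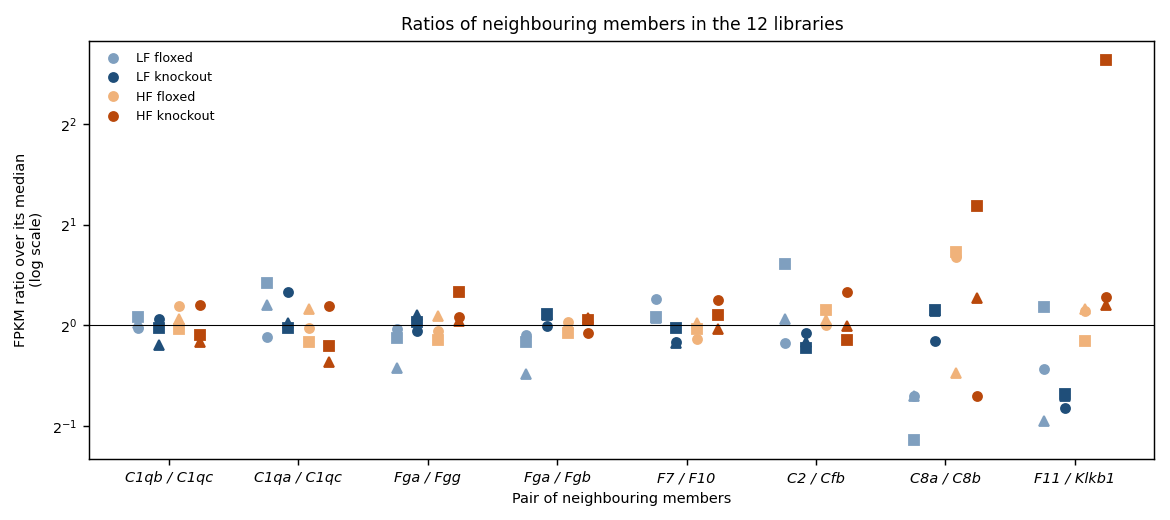
FPKM ratio of the 8 pairs of members with no coding gene between them in each library, divided by the pair's median over the 12 libraries, on a log scale. Colours mark the 4 groups and symbols the replicates 1, 2 and 3. C1qb over C1qc and F7 over F10 spread least, at 1.31-fold and 1.35-fold, and F11 over Klkb1 in HF knockout 2 lies above all other points.

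Other genes of both cascades were taken from lists of regulators, receptors and cofactors. Of 22 further complement genes tested, 4 were higher and 0 lower at an unadjusted p under 0.05 with HF in knockout mice (8.81% and 3.38% of all genes), and 5 were higher and 0 lower in knockout against floxed mice on HF (4.59% and 3.06%). Itgam, a chain of the complement receptor CR3 on myeloid cells, measured 0.12, 0.08 and 0.53 FPKM in the LF floxed libraries, 0.13, 0.16 and 0.16 in LF knockout, 0.34, 0.24 and 0.17 in HF floxed, and 0.78, 0.41 and 3.36 in HF knockout. It was highest in HF knockout 3, the library with the high neutrophil markers, and its log2 difference between genotypes on HF was 2.65 ± 0.78 (edgeR adjusted p = 0.598). Of 33 further coagulation genes, 6 were higher and 2 lower at that p with HF in floxed mice (6.85% and 5.32% of all genes), and 7 were higher and 1 lower in knockout against floxed mice on HF (4.59% and 3.06%). The 2 and the 1 that were lower are shares near those of all genes.

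S100a10 and Anxa2 encode the subunits of a cell-surface receptor for plasminogen and its activator. S100a10 measured 130.1, 109 and 93.5 FPKM in the LF floxed libraries, 126, 174 and 164 in LF knockout, 404, 378 and 192 in HF floxed, and 98.8, 108 and 186 in HF knockout. The HF floxed libraries were all above those of LF floxed, by 1.25 ± 0.26, and above those of HF knockout, which differed by -1.18 ± 0.26 (edgeR adjusted p = 0.177 and 0.457). Anxa2 was higher on HF by 3.72 ± 0.83 in floxed mice and by 1.20 ± 0.75 in knockout mice (edgeR adjusted p = 0.184 and 0.547). F3, the gene of tissue factor, differed by -1.34 ± 0.43 and antithrombin (Serpinc1) by -0.64 ± 0.28 with HF in floxed mice (edgeR adjusted p = 0.301 and 0.391). Fgl1, a fibrinogen-like protein of hepatocytes, reached 1152 FPKM in HF knockout 1 against 50.9 to 387 in the other libraries, and was higher in knockout mice on HF by 2.87 ± 0.68 (edgeR adjusted p = 0.505). Fgl2 was higher on HF by 1.76 ± 0.60 in knockout mice (edgeR adjusted p = 0.344). Gas6, a vitamin K-dependent relative of protein S, was higher in knockout mice on LF by 0.93 ± 0.32, F13a1 by 3.27 ± 1.12 at levels under 1 FPKM, and Adamts13 differed by -0.69 ± 0.27 (edgeR adjusted p = 0.929 for each). Plat, the tissue plasminogen activator, was higher on HF by 2.54 ± 0.75 in the diet average, also at 1.60 FPKM or less (edgeR adjusted p = 0.202).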

How the data were processed

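Mouse liver RNA was sequenced in 12 libraries, 3 in each group, and the labels do not identify the animals. The deposited files give, per gene, the authors' expected counts (estimated read counts) and FPKM computed by the authors with no further normalization stated. The build was mm9, per the submitters' processing notes, and the sources used here name neither the aligner nor the counter. Loci without a gene name held 6.65% to 17.33% of the counts and were left out of the tests.

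Expected counts were rounded to whole numbers and tested with edgeR 4.0.16 (R 4.3.3): TMM scaling, filterByExpr, which kept 12587 genes, 1 mean per group over all 12 libraries, a quasi-likelihood test, and Benjamini-Hochberg adjustment over all genes tested. The fit was also run on simulated counts with known changes. The simulated libraries were independent, so that run does not check the fit for near-identical pairs. Settings tried besides were DESeq2 1.42.0, limma 3.58.1 on log2(FPKM + 1) and log2(FPKM + 0.1), other scalings and filters, fits of the compared groups alone, a replicate block, near-identical pairs summed and libraries left out. With 3 libraries against 3, an exact permutation test of a single gene cannot go below p = 0.1, so none is given. Coordinates of other genes are not printed, because the reference was GRCm38 and the files' build was mm9.

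The labels number the replicates, but nothing ties a number to an animal or batch. Deviations of same-numbered libraries correlated from -0.37 to 0.46, and the best partner had the same number in 11 of 36 cases, so the numbers were not taken to pair libraries.

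The members, the gene lists and the motifs were chosen with earlier results of these data known. Values per library are given for the macrophage-made members, Cfd, the fibrinogen chains, C3 and F2, and for members among the 4 of smallest unadjusted p per direction in the comparisons of pairs and the diet average. Among these, C1ra, C8g, C9, C4b, F5, F13b, Klkb1, Masp1 and Proc are given as ranges or differences. Of the other pathway genes, the 2 of smallest p per direction under 0.05 were named. The acute phase, Kupffer, monocyte, neutrophil and other marker lists served as description.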

Additional observations from a re-analysis of the deposited data

Results flagged for a closer look

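For 3 hepatocyte-made members the FPKM of the groups compared did not overlap and lay in opposite directions. Over all genes that was so for 1.3% with diet and for 1.5% between genotypes, and for 0.103% and 0.175% in the directions that these members took. Cfi was lower on HF in every floxed library and higher on HF in every knockout library than the LF libraries of the same genotype, and the interaction was 1.23 on the log2 scale (edgeR adjusted p = 0.423). C2 and F7 were compared between genotypes. C2 in knockout libraries lay above all floxed libraries on HF, whereas on LF the knockout libraries of both C2 and F7 lay below all floxed libraries. For C2 on LF the nearest FPKM were 20.42 and 20.5, and on the log2 CPM scale of the fit -0.303 and -0.152. F7 too was higher on FPKM in all HF knockout than in all HF floxed libraries, but only at 27.6 against 27.04 at the nearest. On the log2 CPM scale of the fit F7 overlapped there, with HF knockout 2 and 3 (-0.469 and -0.628) below HF floxed 3 (-0.42). The interaction was 1.11 for C2 and 1.30 for F7 (edgeR adjusted p = 0.396 and 0.434). None of these interactions passed a false discovery rate of 5%.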

How the results depend on the processing

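The medians of the hepatocyte-made members kept their sign in every setting for HF against LF in both genotypes, knockout against floxed on HF and the interaction. With DESeq2, members past a false discovery rate of 5% were F11 and C2 (2) for HF against LF in knockout mice, C3 and Cfi (2) for knockout against floxed on HF and C5ar1 (1) for the diet average (1.06%, 0.437% and 3.2% of all genes), and counts at an unadjusted p under 0.05 moved to 8 lower for HF in floxed mice, 1 lower on LF between genotypes, 1 lower in the diet average and 15 positive interactions. With limma on log2(FPKM + 1) the counts were 2 higher for HF in floxed mice, 1 lower for HF in knockout mice, 2 higher between genotypes on LF and 1 lower in the diet average, and with log2(FPKM + 0.1) they were 1 lower, 3 higher, 1 lower and 1 negative interaction. On both scales the hepatocyte-made median was -0.11 for HF in floxed mice and 0.27 for the interaction, and with total counts and no TMM the latter was 0.28. On log2(FPKM + 1) the median of all genes was 0.20, -0.04, -0.11 and 0.12 in the 4 comparisons of pairs. It was -0.23 in the interaction.

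Fitting only the compared groups gave 1 call (Cfd, 0.679% of all genes) and 13 lower for HF in floxed mice, and 4 higher between genotypes on HF. On LF it gave 1 call (C8b, 0.0927% of all genes), 0 higher and 7 lower. These fits held close to identical pairs, HF floxed 1 and 2 or LF knockout 2 and 3. With near-identical pairs summed, 0 were higher and 0 lower for HF in floxed mice, 4 higher for HF in knockout mice, 2 higher between genotypes on HF, 0 on LF, 4 in the diet average, 0 in the genotype average and 2 in the interaction. Without HF floxed 3 and HF knockout 1 together there were 2 calls (C8b and F7, 1.23% of all genes), 2 higher and 13 lower for HF in floxed mice, 5 higher and 2 lower for HF in knockout mice, 4 lower between genotypes on LF, 4 calls (C8b, F7, Proc and C8g, 5.32% of all genes), 4 higher and 11 lower in the diet average with a hepatocyte-made median of -0.26, and 1 lower in the genotype average. The HF floxed group of that setting held only HF floxed 1 and 2, which were close to identical. With a replicate block, 5 were higher for HF in knockout mice, 1 lower in the diet average, 3 higher in the genotype average and 1 negative in the interaction, and no member was called.

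Leaving out each library in turn called no member in any comparison. Members higher at an unadjusted p under 0.05 then numbered 0 to 4 (HF in floxed), 4 to 13 (HF in knockout), 4 to 20 (genotypes on HF), 0 to 2 (genotypes on LF), 4 to 9 (diet average), 2 to 9 (genotype average) and 5 to 18 (interaction), and lower 0 to 9, 0 to 2, 0 to 2, 0 to 3, 0 to 10, 0 to 3 and 0 to 1. The hepatocyte-made median ran from 0.17 to 0.68 between genotypes on HF, and the macrophage-made median of the interaction from 0.05 to 1.14. The genotype average of Cfd ran from -1.70 (without HF knockout 3) to 4.17. A library left out leaves a group with 2 libraries whose spread is pooled with the others. Depth limits C3ar1, C5ar1 and Cfd, with 1 to 116 counts per library for the receptors.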
